A study of Capsicum annuum and Capsicum annuum
Solanum lycopersicum with 48 samples.

Results

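Grafting cuts the stem of scion and stock and holds the cut faces together until they join. A cut sets off wound signalling within hours, and many of the genes it turns on are switched off again before callus fills the gap and vascular strands reconnect. No uncut stem and no time before 1 day after grafting (DAG) was sampled. Genes turned on by the cut thus cannot be told here from genes lowered later. The 134 tomato genes described here had, among the 3 sampled days, their highest level at 1 DAG in self-grafted tomato. They were chosen by their FPKM in the self-graft, among 33604 tomato genes, on 3 conditions, 5 FPKM or more at 1 DAG and a 3-fold or larger excess of FPKM + 1 at 1 DAG over both 3 and 5 DAG. FPKM is the number of sequenced fragments per gene, divided by transcript length and library size. The members were then followed in 2 heterografts, which the choice did not use.

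The study joined seedlings of tomato (Solanum lycopersicum var. M82) and pepper (Capsicum annuum var. Big Dipper) by wedge grafting and sequenced polyadenylated RNA of the junctions. The groups used here were tomato:pepper (a tomato scion on a pepper stock), pepper:tomato (a pepper scion on a tomato stock) and the tomato self-graft, each at 1, 3 and 5 DAG, with 4 libraries per group and 36 libraries in 9 groups. The labels give no mutation and no treatment other than grafting for any of these groups. By the paper's methods, grafted plants stood in darkness for 3 days and went back to light on day 4. Comparisons of 5 with 1 DAG therefore also set light against dark in every graft, and time and light cannot be told apart. Each library came from 1 junction that held scion and stock tissue together. In the heterografts tomato RNA thus came from the scion side in tomato:pepper and from the stock side in pepper:tomato. The split by gene identifier is not exact. The study reports a small part of reads aligned to the wrong species before the genomes were joined, and the rate after joining is not known here. In such bulk tissue, fewer cells of a type and less RNA per cell cannot be told apart.

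The deposited tables give 1 FPKM value per group of 4 libraries, so no standard deviation between libraries could be computed and no test was made here, and the depth behind a value is unknown. A gene was counted as lower or higher where FPKM + 1 differed by 3-fold or more, and the main counts of members stand beside the share of all expressed tomato genes (1 FPKM or more at any time of that graft) past the same limit. Fold changes are on the log2(FPKM + 1) scale, which understates the change of low genes. Tomato genes took 59.5%, 29.7% and 49.2% of summed FPKM in tomato:pepper at 1, 3 and 5 DAG, and 17.9%, 51.7% and 23.1% in pepper:tomato. The heterograft groups labelled 3 DAG thus departed in opposite directions from those at 1 and 5 DAG. The cambium regulator WOX4 (Solyc04g078650) had 8.19, 18.0 and 13.2 FPKM in tomato:pepper and 10.5, 2.67 and 16.8 FPKM in pepper:tomato, and 15.1, 19.9 and 20.8 FPKM in the self-graft. Exchanging the 3 DAG values would only move the low value of WOX4 to tomato:pepper. This gene thus cannot decide between the labels. Because of the tomato shares, counts and medians at 3 DAG are given as labelled and with the 3 DAG columns of the heterografts exchanged. Values of single genes are given as labelled only. The comparison of 5 with 1 DAG, which uses neither column, is given first.

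In the tomato self-graft, which set the choice, the members had a median of 22.0 FPKM at 1 DAG, 3.63 FPKM at 3 DAG and 3.34 FPKM at 5 DAG. Their quartiles at 1 DAG were 11.5 and 53.4 FPKM, and 17 members had 100 FPKM or more. The rule itself asks for a drop of 3-fold or more by 3 DAG, so this timing is part of the choice. Between 3 and 5 DAG, 116 members stayed within 2-fold, 17 were lower at 5 DAG by 2-fold or more and 1 was higher by as much. The rule used both days and kept both low, so this likeness is partly a result of the choice. Shares of all genes at 2-fold are not given. At 3-fold, 2 members were lower at 5 than at 3 DAG and 0 higher, against 1.94% and 1.06% of all expressed tomato genes. The smaller of the 2 excesses that the rule asks for had a median of 3.90-fold, was under 4-fold in 72 members and reached 10-fold in 4. The share of all expressed tomato genes past 3-fold lower in the self-graft was 1.15% between 1 and 3 DAG and 1.99% between 1 and 5 DAG, and 0.695% met the complete rule. The members were 0.399% of all tomato genes and 1.02% of the 13153 genes that had 5 FPKM or more at 1 DAG. The same rule applied to the other days chose 110 genes at 3 DAG and 133 at 5 DAG.

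**Figure D1:**
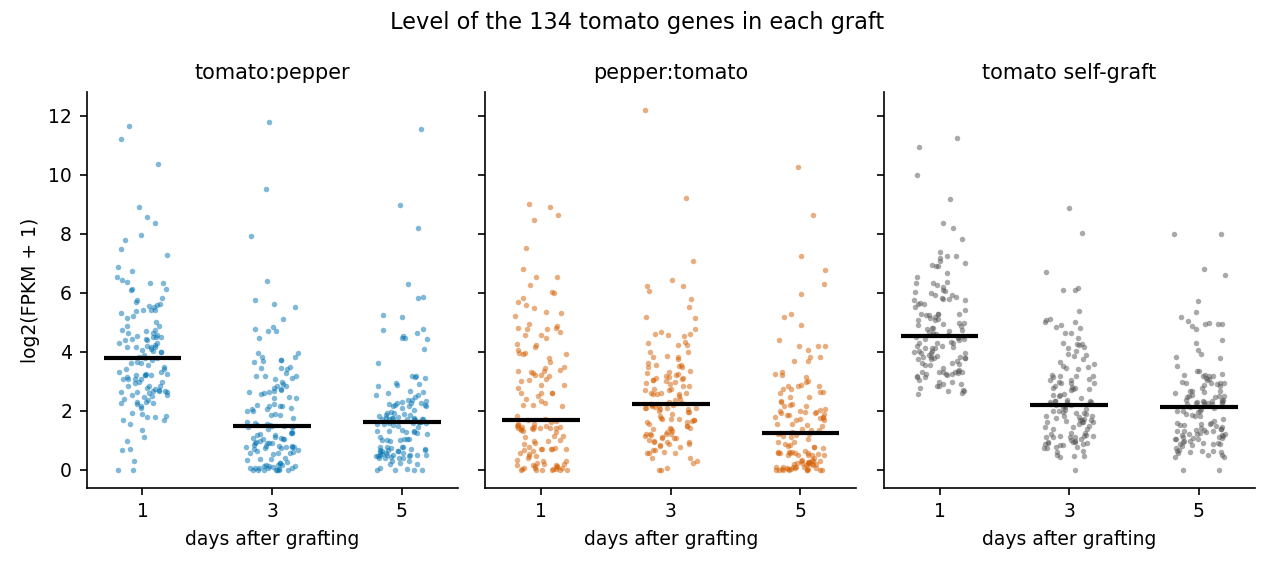
Level of each of the 134 members, as log2(FPKM + 1), at 1, 3 and 5 days after grafting in tomato:pepper, pepper:tomato and the tomato self-graft, which chose the genes. Each point is 1 gene (1 value for 4 libraries) and the bar is the median over members, which in FPKM was 12.8, 1.81 and 2.07 in tomato:pepper, 2.26, 3.69 and 1.40 in pepper:tomato and 22.0, 3.63 and 3.34 in the self-graft.

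Values close to the threshold ran on without a break. Solyc01g099330, just inside, had 6.87, 1.15 and 1.62 FPKM on days 1, 3 and 5 in the self-graft, with an excess of 3.004-fold. Solyc07g032170 followed at 3.05-fold, with 16.5, 4.68 and 4.73 FPKM. Solyc08g061060, just outside at 2.999-fold, had 18.3, 5.45 and 0.828 FPKM, and Solyc02g081300, at 2.998-fold, had 12.1, 3.38 and 3.31 FPKM.

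The member with the highest level, Solyc12g094620, stood apart. The self-graft table lists it at 2443 FPKM at 1 DAG and at 0 at 3 and 5 DAG, while it had 2378, 3504 and 3039 FPKM in tomato:pepper and 350.5, 4696 and 1240 FPKM in pepper:tomato at 1, 3 and 5 DAG. Of the 464 tomato genes that reached 500 FPKM or more in the self-graft, 7 are listed at 0 at 3 DAG, this one among them, so its entry to the list rests on listed zeros. It was kept as a member, and the counts without it are over 133 genes. Solyc09g056390 came next in level, with 1980, 469 and 257 FPKM in the self-graft.

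The fall of the members between 1 and 5 DAG was widespread in tomato:pepper. At 5 over 1 DAG, 83 of the 134 members (61.9%) were lower by 3-fold or more and 0 were higher, against 4.28% of 17846 expressed tomato genes lower and 2.11% higher. The median change of the members was -1.95 on the log2 scale (quartiles -2.79 and -1.29), and that of all expressed tomato genes was -0.27. A lower value at 5 than at 1 DAG, of any size, was found in 128 members. Relative to the median of all expressed tomato genes, 71 members were lower by 3-fold or more, against 2.89% of all, and 0 higher. Genes outside the rule that also had 5 FPKM or more at 1 DAG in the self-graft were lower by 3-fold in 4.55% of 13019 cases in tomato:pepper and in 1.5% in pepper:tomato.

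In pepper:tomato, where tomato is the stock, fewer members and also fewer of all expressed tomato genes fell by 3-fold or more, as deposited. At 5 over 1 DAG, 32 of the 134 (23.9%) were lower by 3-fold or more and 4 (2.99%) were higher, against 1.72% of 17990 expressed tomato genes lower and 4.71% higher. The median change was -0.54 (quartiles -1.56 and 0.03) for the members and 0.09 for all expressed tomato genes, and 94 members had a lower value of any size. Relative to the median of all expressed tomato genes, 36 members were lower, against 1.95% of all, and 4 higher by 3-fold or more. With tomato genes rescaled to 1 tomato total per group, 65 members were lower in tomato:pepper and 53 in pepper:tomato, against 2.33% and 4.66% of all. The starting level differed as well, and not in the members alone. Over 18661 tomato genes expressed in either heterograft, the median log2 ratio of FPKM + 1 in tomato:pepper over pepper:tomato at 1 DAG was 0.91. Of 33604 tomato genes, 16529 reached 1 FPKM at 1 DAG in tomato:pepper and 15363 in pepper:tomato. Shares of all genes at the limits of 5 and 2 FPKM, used for the members below, are not given. At 1 DAG, 105 members reached 5 FPKM in tomato:pepper and 58 in pepper:tomato, and 6 and 42 members were under 1 FPKM in these grafts. A member under 2 FPKM at 1 DAG cannot fall by 3-fold on this scale, which applied to 9 members in tomato:pepper and 64 in pepper:tomato. Of those that reached 5 FPKM, 79 of 105 in tomato:pepper and 30 of 58 in pepper:tomato were lower by 3-fold or more at 5 DAG, counts that this filter itself raises.

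**Figure D2:**
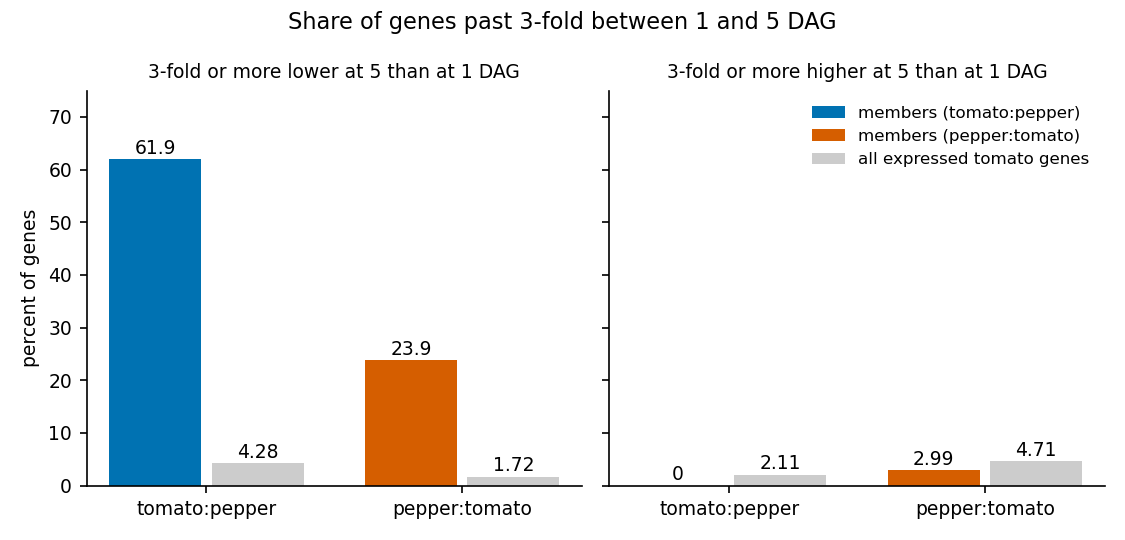
Percent of genes 3-fold or more lower (left panel) and higher (right panel) at 5 than at 1 DAG in tomato:pepper and pepper:tomato, for the 134 members (coloured bars) and for all expressed tomato genes of that graft (grey bars). The lower calls cover 61.9% of members against 4.28% of all genes in tomato:pepper, and 23.9% against 1.72% in pepper:tomato.

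Taking both heterografts by gene, 21 members were lower by 3-fold or more at 5 over 1 DAG in both, 62 in tomato:pepper only, 11 in pepper:tomato only and 40 in neither. Over the 18661 tomato genes expressed in either heterograft, these shares were 0.804% in both, 3.28% in tomato:pepper only, 0.852% in pepper:tomato only and 95.1% in neither. Solyc07g051950 had the largest drop in pepper:tomato among members that reached 5 FPKM there, with 0.215 FPKM at 5 DAG against 28.4 FPKM at 1 DAG, a log2 change of -4.60. In tomato:pepper it had 0.609 FPKM at 5 DAG against 52.8 FPKM at 1 DAG, a log2 change of -5.06. Solyc02g070450 came second in pepper:tomato, with 0.727 FPKM at 5 DAG against 24.5 FPKM at 1 DAG, and also fell in tomato:pepper, with 0.310 FPKM against 6.77 FPKM. Both genes had low levels at 5 DAG in the self-graft too, 1.30 and 0.549 FPKM. The largest drop in tomato:pepper was that of Solyc02g086310, with 2.595 FPKM at 5 DAG against 326 FPKM at 1 DAG, a log2 change of -6.51. In pepper:tomato this gene had 1.92 FPKM at 5 DAG against 14.3 FPKM at 1 DAG, a log2 change of -2.39. Solyc10g050690 was second in tomato:pepper, with 0.461 FPKM at 5 DAG against 55.7 FPKM at 1 DAG, and had 0.0461 FPKM at 5 DAG and 0.0407 FPKM at 1 DAG in pepper:tomato.

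A few members ran against the list. Solyc10g084240 was higher at 5 DAG in pepper:tomato, with 17.2 FPKM against 1.60 FPKM at 1 DAG (log2 change 2.81), and lower in tomato:pepper, with 7.89 FPKM against 36.1 FPKM (log2 change -2.06). Solyc02g086300 had 13.1 FPKM at 5 DAG against 1.45 FPKM at 1 DAG in pepper:tomato (2.52), and 4.85 FPKM against 25.2 FPKM in tomato:pepper (-2.16). These were the 2 members called in opposite directions in the heterografts at 5 over 1 DAG, against 0.102% of genes expressed in either heterograft. The other 2 members higher in pepper:tomato were Solyc12g094620, described above, and Solyc01g005305, which was named after its values were seen and had 4.59 FPKM at 5 DAG against 0.0207 FPKM at 1 DAG. In tomato:pepper, among members that reached 5 FPKM there, those with the highest 5 over 1 DAG change were Solyc12g094620 (0.35) and Solyc04g081570, with 15.9 FPKM at 5 DAG against 22.4 FPKM at 1 DAG (-0.47).

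**Figure D3:**
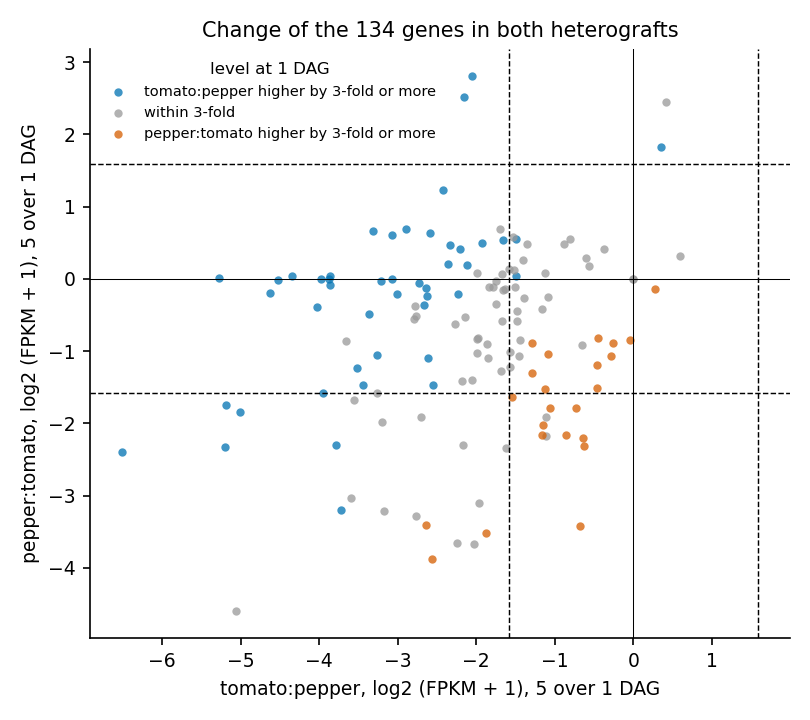
Change of each member between 1 and 5 DAG, as log2 of FPKM + 1 at 5 over 1 DAG, in tomato:pepper (horizontal) and pepper:tomato (vertical). Points are coloured by the level at 1 DAG in tomato:pepper relative to pepper:tomato, and dashed lines mark 3-fold. The lower left corner holds the 21 members that fell in both grafts, and the upper left the 2 that moved opposite ways.

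The 3 DAG columns split the heterografts further. In tomato:pepper as labelled, 85 members were lower at 3 over 1 DAG by 3-fold or more and 1 was higher, against 6.69% of expressed tomato genes lower and 3.14% higher, and the median change was -2.09 against -0.56 for all. In pepper:tomato as labelled, 28 members were lower and 33 higher, against 3.22% lower and 26.5% higher, and the median change was 0.25 against 0.77 for all. The share of higher calls among members there (24.6%) was near that of all expressed tomato genes. Rescaled to 1 tomato total, 60 members were lower and 15 higher in pepper:tomato, against 28.8% lower and 5.26% higher of all. Relative to the median of all genes 39 were lower and 13 higher, against 9.58% and 12.1%, so the sign of the members' median at 3 DAG in this graft depended on the scaling. With the 3 DAG columns exchanged, 58 members were lower in tomato:pepper and 27 in pepper:tomato, against 2.16% and 1.35% of all. The median changes were then -1.49 in tomato:pepper and -0.26 in pepper:tomato for the members, and -0.13 and 0.47 for all expressed tomato genes. At 3 over 1 DAG as labelled, 30 members were lower in tomato:pepper and higher in pepper:tomato by 3-fold or more, against 4.31% of tomato genes expressed in either heterograft, and with the columns exchanged 2 were, against 0.338%.

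The complete rule, asked of each heterograft as it had been asked of the self-graft, was met by 70 members (52.2%) in tomato:pepper and 18 (13.4%) in pepper:tomato, against 3.05% and 0.411% of expressed tomato genes in these grafts. In tomato:pepper 544 tomato genes met it, so members were 12.9% of that list, and in pepper:tomato 74 genes met it, of which members were 24.3%. With the 3 DAG columns exchanged, 48 members met the rule in tomato:pepper and 22 in pepper:tomato, against 0.641% and 0.487% of all. The level at 1 DAG was the highest of the 3 days in 124 members in tomato:pepper, as in 63.4% of expressed tomato genes, and in 51 members in pepper:tomato, as in 15.3% of expressed tomato genes. In pepper:tomato as labelled, 70 members were highest at 3 DAG, as were 66.7% of expressed tomato genes. With the columns exchanged, 124 members were highest at 1 DAG in tomato:pepper, as were 43.3% of all, and 76 in pepper:tomato, as were 20.8% of all.

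As labelled, 5 members met the rule in all 3 grafts, and they are named here after their values were seen. With the 3 DAG columns exchanged 8 did, 4 of these 5 among them. Solyc02g081190 was the most abundant, with 179, 52.5 and 57.3 FPKM on days 1, 3 and 5 in tomato:pepper, 182, 34.7 and 35.0 FPKM in pepper:tomato and 333, 71.1 and 95.6 FPKM in the self-graft. Solyc05g006310 had 28.5, 1.37 and 3.74 FPKM in tomato:pepper, 75.7, 13.1 and 6.22 FPKM in pepper:tomato and 17.5, 3.66 and 3.92 FPKM in the self-graft. Within the heterografts its level at 1 DAG was lower in tomato:pepper than in pepper:tomato. The others were Solyc03g032040 and the genes Solyc07g051950 and Solyc02g070450 given above. None of these 5 has a name in the sources used here. The counts of 5 and 8 stand without the share of all expressed tomato genes that met the rule in both heterografts, which is not given.

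At 1 DAG, members differed widely in which heterograft held them. This comparison was added after the values were seen, and uses the ratio of FPKM + 1 in tomato:pepper over pepper:tomato minus the median log2 ratio of 18661 tomato genes expressed in either heterograft, which was 0.91 at 1 DAG, -0.40 at 3 DAG and 0.55 at 5 DAG. Relative to that median, 46 members were higher in tomato:pepper by 3-fold or more, against 8.11% of all genes, and 23 were higher in pepper:tomato, against 5.69% of all. The remaining 65 lay within 3-fold. As deposited, without that correction, 77 members were higher in tomato:pepper and 9 in pepper:tomato, against 26% and 0.986% of all genes. With tomato totals made equal 41 were higher in tomato:pepper and 35 in pepper:tomato, against 4.02% and 18.3% of all. At 5 DAG, 3 members were higher in tomato:pepper and 12 in pepper:tomato, against 2.28% and 2.18% of all genes. At 3 DAG as labelled, the counts were 13 and 23, against 8.07% and 4.23%, and exchanging the columns turns them round, to 23 higher in tomato:pepper and 13 in pepper:tomato.

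The 46 members that were higher in tomato:pepper at 1 DAG had medians of 21.3 FPKM there and 1.24 FPKM in pepper:tomato. At 5 DAG, in libraries that did not sort them, their median relative ratio was -0.07, and 2 remained higher in tomato:pepper by 3-fold. Their medians were then 2.00 FPKM in tomato:pepper and 0.486 FPKM in pepper:tomato. A member at 2.00 FPKM in tomato:pepper could not be called higher there, whatever its level in pepper:tomato. The smaller difference at 5 DAG thus cannot be told apart from this limit of the FPKM + 1 scale. The 23 members that were higher in pepper:tomato at 1 DAG had medians of 4.84 FPKM in tomato:pepper and 22.9 FPKM in pepper:tomato. At 5 DAG their median relative ratio was -1.28, with 21 of 23 below 0 and 5 past 3-fold. At 3 DAG as labelled both sets changed sides, and with the columns exchanged neither did. The exchange turns the sign of every such ratio, so the second outcome follows from the first by arithmetic. As labelled, the first set had a median relative ratio of -1.26 with 36 of 46 below 0, and the second one of 0.83 with 20 of 23 above 0. Exchanged, the medians were 1.26 and -0.83. This reversal was not particular to the members. Across the 134 members Pearson's r of the relative ratio was -0.58 between 1 and 3 DAG and 0.52 between 1 and 5 DAG, and across the 18661 genes it was -0.56 and 0.68, as a description of genes that share libraries. Exchanging the columns turns the sign of r between 1 and 3 DAG, to 0.58 for the members and 0.56 for all.

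**Figure D4:**
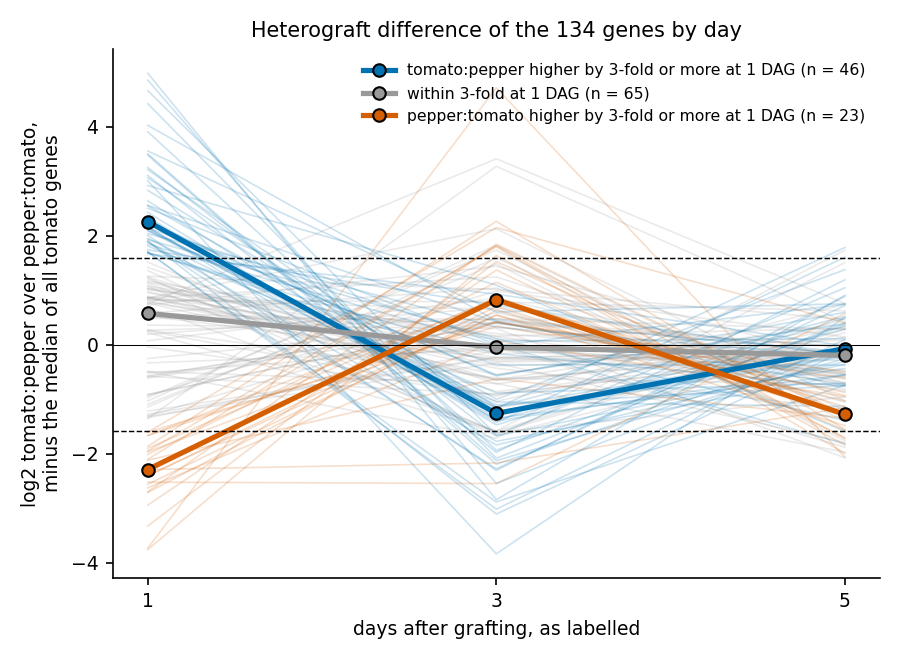
Log2 ratio of FPKM + 1 in tomato:pepper over pepper:tomato for each member at 1, 3 and 5 DAG as labelled, minus the median of all expressed tomato genes. Thin lines are genes, thick lines medians of the members sorted by their ratio at 1 DAG (46 higher in tomato:pepper, 65 within 3-fold, 23 higher in pepper:tomato), and dashed lines mark 3-fold. The 2 outer medians were 2.26 and -2.29 at 1 DAG by choice, -1.26 and 0.83 at 3 DAG, and -0.07 and -1.28 at 5 DAG.

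Named members include 2 transcription factor genes, which the study names in its network of early genes. The ortholog of NAC104 (Solyc01g104900), a NAC factor that in Arabidopsis restrains xylem differentiation and cell death, had 46.8, 6.11 and 3.96 FPKM on days 1, 3 and 5 in tomato:pepper, 4.73, 23.5 and 1.77 FPKM in pepper:tomato and 60.0, 16.5 and 8.22 FPKM in the self-graft. It fell at 5 over 1 DAG in tomato:pepper (log2 change -3.27), and its change in pepper:tomato, -1.05, did not reach 3-fold. The ortholog of RAP2.6L (Solyc12g042210), an ERF/AP2 factor that in Arabidopsis acts in the healing of cut stems, had 25.8, 5.57 and 8.06 FPKM in tomato:pepper, 16.9, 8.25 and 7.88 FPKM in pepper:tomato and 48.3, 12.6 and 7.70 FPKM in the self-graft. Its changes at 5 over 1 DAG, -1.57 in tomato:pepper and -1.01 in pepper:tomato, both stayed short of 3-fold, the first by little. NAC104 was among the members higher in tomato:pepper at 1 DAG, and RAP2.6L within 3-fold.

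Of the 56 tomato genes that the study names, these 2 were members, and 2 others missed the rule by less than 1.5-fold. HCA2 (Solyc06g071480), a DOF factor that in Arabidopsis promotes cambial activity, had 4.77, 2.80 and 2.04 FPKM in tomato:pepper, 14.6, 1.10 and 3.41 FPKM in pepper:tomato and 6.26, 1.56 and 2.25 FPKM in the self-graft. It was lower at 5 over 1 DAG in pepper:tomato by 3-fold (log2 change -1.83) and had a change of -0.92 in tomato:pepper. A WRKY33 ortholog (Solyc09g014990), of a factor of plant immunity, had 1.99, 1.09 and 1.45 FPKM in tomato:pepper, 3.35, 2.55 and 2.08 FPKM in pepper:tomato and 5.70, 2.02 and 2.00 FPKM in the self-graft. Neither of its heterograft changes at 5 over 1 DAG, -0.29 and -0.49, reached 3-fold.

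The study's gene regulatory network of self-grafted tomato has a 1 DAG module, built on these same libraries. The edge list used here holds 84 of its genes, and the study's text gives a slightly different size. The members and the module shared 26 genes, 31.0% of the listed module and 19.4% of the members. NAC104 is a main regulator of the module. Its other main regulator, PTI5 (Solyc02g077370), an ERF of tomato that binds the resistance kinase Pto, had 46.4, 28.5 and 10.7 FPKM in the self-graft and was no member, because its smaller excess was 1.61-fold. Among the 26 shared genes, 17 were lower at 5 over 1 DAG in tomato:pepper by 3-fold or more and 10 in pepper:tomato. Among the other 108 members the counts were 66 and 22. Over the 84 module genes, 46 were lower in tomato:pepper, 26 in pepper:tomato and 56 in the self-graft, to be read beside the 4.28%, 1.72% and 1.99% of all expressed tomato genes given above.

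**Figure D5:**
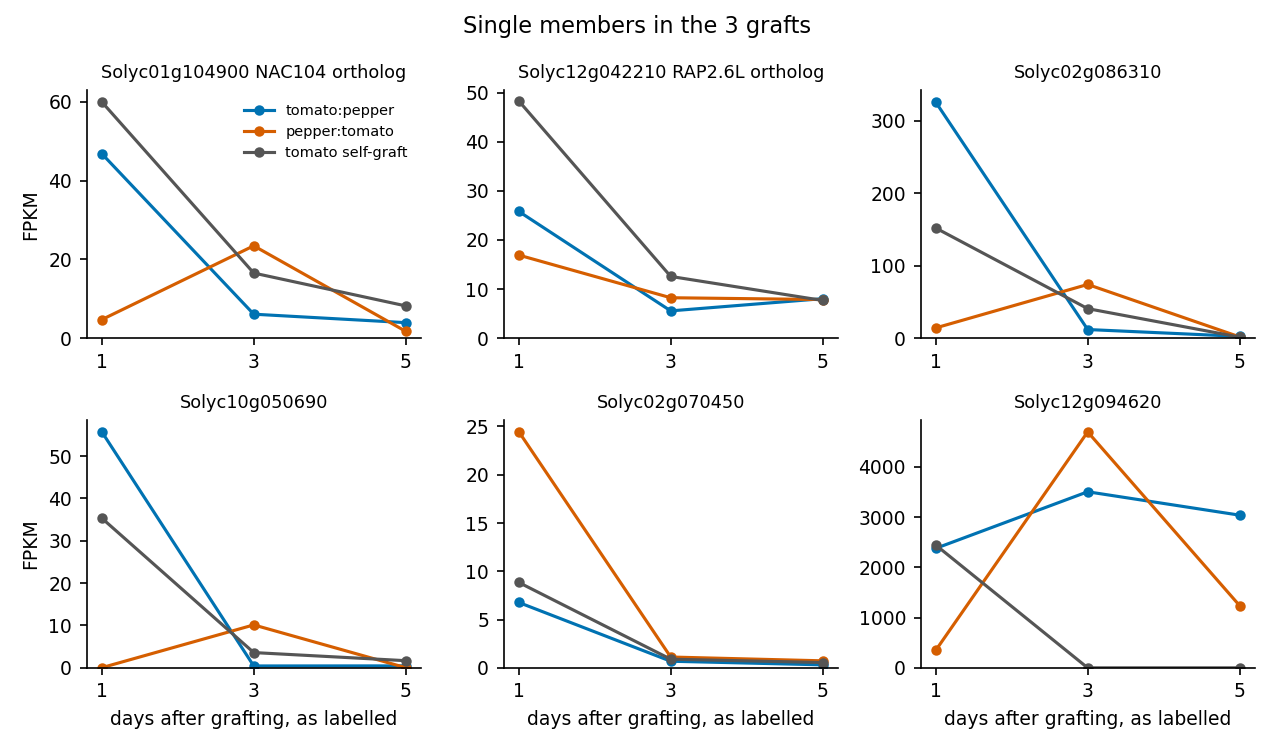
FPKM of 6 members at 1, 3 and 5 DAG as labelled in tomato:pepper, pepper:tomato and the tomato self-graft, 1 value for each group of 4 libraries. The NAC104 ortholog, Solyc02g086310 and Solyc10g050690 were highest at 1 DAG in tomato:pepper and at 3 DAG in pepper:tomato, Solyc02g070450 was highest at 1 DAG in every graft, and Solyc12g094620 is listed at 0 at 3 and 5 DAG in the self-graft only.

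The largest excess after that of Solyc12g094620 was that of Solyc01g060010, 16.2-fold, with 127, 6.89 and 1.94 FPKM on days 1, 3 and 5 in the self-graft. The tables give it as 1 locus joined with Solyc01g060020. In tomato:pepper it had 6.82, 0.620 and 1.48 FPKM, a log2 change at 5 over 1 DAG of -1.65 that lost the 3-fold call relative to the median of all genes (-1.39). In pepper:tomato it had 0.616, 5.56 and 0.450 FPKM and was not called at 5 over 1 DAG. Solyc09g056390 fell in tomato:pepper, with 508 FPKM at 5 DAG against 3238 FPKM at 1 DAG, and had 399.9 FPKM at 5 DAG against 513 FPKM at 1 DAG in pepper:tomato, a log2 change of -0.36.

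Members were spread over chromosomes 1 to 12, as their identifiers give them, with 23 on chromosome 1, 21 on chromosome 2 and 2 on chromosome 11. As a share of the genes that had 5 FPKM or more at 1 DAG, this was 1.35% on chromosome 1, 1.53% on chromosome 2 and 0.232% on chromosome 11, and 1.02% over all. In identifier order, 10 pairs of members lay within 3 steps of each other, which took in 20 members (14.9%). The same count was 10.9% of the 110 genes that peaked at 3 DAG and 20.3% of the 133 that peaked at 5 DAG. Neighbours that are copies of each other can share reads, so their values are uncertain and not independent.

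Neighbouring members were alike in some pairs and unlike in others. Solyc02g080920 had 7.43 FPKM at 1 DAG and was listed at 0 at 3 and 5 DAG in tomato:pepper, and its neighbour Solyc02g080930 had 8.31 FPKM and the same zeros. In pepper:tomato these genes had 0, 3.52 and 0 FPKM and 0.0244, 2.36 and 0 FPKM on days 1, 3 and 5, and in the self-graft 8.87, 0.385 and 0.531 FPKM and 8.48, 0.884 and 0.352 FPKM. The pair thus shared 1 profile in every graft. Solyc02g086300 and Solyc02g086310 also sit side by side, and both fell in tomato:pepper, but in pepper:tomato the first was higher at 5 over 1 DAG and the second lower, as given above. Over the 10 pairs, both members were in the same class of the 1 DAG ratio in 7 pairs and on opposite sides in 1. With 65 of the 134 members in the class within 3-fold, pairs of members that are not neighbours also often share a class. Their share is not given, so the count of 7 is a description only. It includes Solyc01g066860 and Solyc01g066865, the second of which is listed at 0 in every heterograft group.

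Members were a small part of the tomato RNA. Without Solyc12g094620, they made up 1.08%, 0.339% and 0.270% of summed tomato FPKM in tomato:pepper at 1, 3 and 5 DAG, 1.40%, 0.212% and 0.441% in pepper:tomato and 1.02%, 0.135% and 0.163% in the self-graft. By this measure, which is a share within tomato and is led by a few abundant genes, 1 DAG was the highest day in each graft, pepper:tomato included. The members' median and their share therefore ranked the days of pepper:tomato differently, since the median in FPKM was highest at the time labelled 3 DAG. With the 3 DAG columns exchanged that median was 1.81 FPKM at 3 DAG, under the 2.26 FPKM at 1 DAG, and the ranking no longer differed at the top. With Solyc12g094620, the shares were 1.36%, 1.02% and 0.818% in tomato:pepper, 1.56%, 0.741% and 0.878% in pepper:tomato and 1.30%, 0.135% and 0.163% in the self-graft. Of the members, 2 were listed at 0 at all times in each heterograft, and 128 reached 1 FPKM at some time in tomato:pepper and 124 in pepper:tomato.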

How the data were processed

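RNA-seq of graft junctions was analysed for 36 of the 48 libraries (9 of 12 groups), grouped by sample title. The organism label of the tomato self-grafts, Capsicum annuum, conflicts with the titles and was set aside. FPKM values were made by the authors with TuxNet at default settings (fastq-mcf, HISAT2, Cufflinks; versions not given in the sources used here) against tomato ITAG3.2, or tomato joined with pepper CM334 for heterografts, and were deposited as 1 value per group of 4 libraries. Heterograft FPKM is scaled over both species, and the tables were normalized separately, so fold changes were taken within a table and levels of the self-graft stand beside those of the heterografts without a test. Columns of log2 fold change and q-value by the authors hold their own comparisons and were not used. Depth per library is unknown.

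Changes were taken as log2(FPKM + 1), and 3-fold was called. With 1 FPKM value per group no test was made here. The members and lists were chosen with earlier results of these data known. Genes named were the members and near-members that the study names and, from the highest levels, largest excesses, extremes of each heterograft, threshold and neighbours, at most 2 that rose and 2 that fell each, because 0 tomato identifiers matched the reference annotation. For the same reason no sequences are given, and no families or functions beyond those of genes the study names. Version suffixes of identifiers were dropped, and so was all but the first identifier of merged loci (1757 tomato rows, 4 of them members). The counting steps were tested on simulated data. Alternatives to the pseudocount, floor, fold, scaling, filter and 3 DAG labels were tried. Those that leave out Solyc12g094620 or all but 1 of neighbouring members, and the ratio of the heterografts, with its values for exchanged 3 DAG columns, were chosen after seeing the data. The software was Python 3.11.15 with matplotlib 3.10.9, scipy 1.17.1, numpy 2.4.6 and pandas 2.3.3.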

Additional observations from a re-analysis of the deposited data

Results flagged for a closer look

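In 30 members, the heterografts moved in opposite directions between 1 and 3 DAG as labelled, with a level at least 3-fold lower at 3 DAG in tomato:pepper and at least 3-fold higher in pepper:tomato, as did 4.31% of the tomato genes expressed in either heterograft. With the 3 DAG columns exchanged this held for 2 members and for 0.338% of those genes. Between 1 and 5 DAG the same held for 2 members, Solyc10g084240 and Solyc02g086300, and for 0.102% of those genes. The difference was not tested here.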

How the results depend on the processing

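No paired analysis was possible because the tables hold 1 value per group of 4 libraries, and leaving out each replicate was not run for the same reason. In tomato:pepper, the members' medians stayed below 0 under every alternative tried, while in pepper:tomato the median at 3 over 1 DAG changed sign under 5 of them. For a part of the single genes named, the 5 over 1 DAG value was checked for each gene, heterograft and alternative. Of these checks, which count a gene repeatedly, 11 lost the 3-fold call, 4 gained one and 129 kept their side. In 0 of them did a called value change sign. Members chosen at 2-fold numbered 406, with medians in tomato:pepper of -1.33 (3 over 1 DAG) and -1.25 (5 over 1 DAG) and of -0.016 in pepper:tomato at 3 over 1 DAG, while 37.9% fell at 5 DAG in tomato:pepper, 55.7% fell in neither heterograft, and 31.0% in tomato:pepper and 7.88% in pepper:tomato met the rule. Members chosen at 4-fold numbered 62, with medians of -2.33 and -2.35 in tomato:pepper and of 0.96 and -0.18 in pepper:tomato at 3 and 5 over 1 DAG, and 17.7% fell in neither. With the self-graft groups scaled to 1 total, 262 genes met the rule.

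With a pseudocount of 5 FPKM, 57 genes met the rule. In tomato:pepper 34.3% of the 134 members were then lower at 3 DAG (median -1.09) and 35.8% at 5 DAG (-1.18), and 29.9% met the rule; in pepper:tomato 12.7% were lower at 5 DAG (-0.23), with 4.48% lower in both heterografts and 56.0% in neither. The ratio at 1 DAG then had a median of 0.41, with 18.7% of members higher in tomato:pepper and 7.46% in pepper:tomato. With a pseudocount of 0.1 FPKM, the medians were -2.71 and -2.37 in tomato:pepper at 3 and 5 over 1 DAG and -0.93 in pepper:tomato at 5 over 1 DAG, and 26.1% of members fell in both and 17.2% in neither. Scaled to 1 tomato total, the medians at 3 and 5 over 1 DAG were -1.72 and -1.54 in tomato:pepper and -1.19 and -1.21 in pepper:tomato, where 44.8% were lower at 3 DAG, 39.6% at 5 DAG and 28.4% met the rule. Centred on the median of all genes, the medians at 3 over 1 DAG were -1.53 in tomato:pepper and -0.52 in pepper:tomato, and with the 3 DAG columns exchanged they were -1.49 and -0.26.

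Among members at 5 FPKM or more at 1 DAG of that heterograft, the medians at 3 and 5 over 1 DAG were -2.26 and -2.23 in tomato:pepper and -1.51 and -1.65 in pepper:tomato, where 48.3% were lower at 3 DAG, 51.7% at 5 DAG and 31.0% met the rule, and 38.8% of those at that level in both fell in both; the filter raises these shares by its construction. Calls at 2-fold gave 39.6% lower at 5 DAG and 22.4% meeting the rule in pepper:tomato. The ratio of the heterografts at 1 DAG, not centred, had a median of 1.77 with 57.5% of members higher in tomato:pepper and 6.72% in pepper:tomato, and after scaling to tomato totals a median of 0.24 with 26.1% higher in pepper:tomato. Where no cause follows from the alternative itself, the cause was not tested. Leaving out Solyc12g094620, or all but 1 of each run of neighbours, moved no count by 1.5 times and no median's sign. Shares of all expressed tomato genes are not given under the other pseudocounts, the 5 FPKM filter or calls at 2-fold. Percentages under these alternatives describe the members alone. Depth is unknown, so values under 1 FPKM carry an unknown counting error.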
